A study of Homo sapiens with 13 samples.

Results

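The genes of the V(D)J recombination machinery were followed as sites where 2 transcription factors of the Wnt pathway were mapped. The cells were Nalm6, an established line grown from a human B-cell precursor leukaemia. The members were all deposited peaks that overlapped the RAG locus, chr11:36480000-36720000 (hg19), which holds RAG1 at 36590 to 36601 kb and RAG2 at 36613 to 36620 kb with their flanks, or the DNTT locus, chr10:98034000-98128000, which is the gene at 98064 to 98098 kb with 30 kb on both sides. They numbered 1095 of 3429979 peaks in 12 lists, 754 at the RAG locus and 341 at the DNTT locus. The lists came from CUT&RUN, which uses an antibody to tether a nuclease near the protein of interest and sequences the DNA it cuts loose. Antibodies against LEF1 and TCF7L2 were each used on 3 control cultures and on 3 cultures exposed for 24 h to 5 µM prednisolone, a synthetic glucocorticoid. All cultures were in medium with charcoal-stripped serum, and the controls are labelled as untreated in one field and as vehicle-treated in the protocol. The replicates are described as independent experiments on a single cell line. The series also has an IgG sample, which was not analysed here. Peak lists hold no expression values, so whether the 3 genes were transcribed in these cultures was not measured.

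RAG1 and RAG2 together form the recombinase that cuts DNA at the recombination signal sequences of immunoglobulin and T-cell receptor genes. DNTT encodes terminal deoxynucleotidyl transferase, which adds bases without a template at the junctions and is a classical marker of lymphoid precursors and of precursor-cell leukaemias. RAG1 and RAG2 are neighbours transcribed towards each other, and in the mouse their expression in B-cell precursors depends on distal elements, among them the Erag enhancer upstream of Rag2. LEF1 and TCF7L2 belong to the TCF/LEF family, bind DNA through an HMG box and recruit beta-catenin to target genes. LEF1 has been described as a factor that binds the RAG2 promoter together with c-Myb and Pax-5.

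The start sites of RAG2 and DNTT are shown first, because LEF1 peaks lay over both of them in these lists. The sequences are the RefSeq promoter windows, from 250 bases before to 50 after the annotated start, on the GRCh38.p14 build (chr11:36598187-36598486, minus strand, for RAG2, and chr10:96304184-96304483, plus strand, for DNTT). They are printed 5′ to 3′ in the direction of transcription, with matches to the E-box CANNTG, the pattern read by E proteins such as the TCF3 product E2A, in capitals.
RAG2: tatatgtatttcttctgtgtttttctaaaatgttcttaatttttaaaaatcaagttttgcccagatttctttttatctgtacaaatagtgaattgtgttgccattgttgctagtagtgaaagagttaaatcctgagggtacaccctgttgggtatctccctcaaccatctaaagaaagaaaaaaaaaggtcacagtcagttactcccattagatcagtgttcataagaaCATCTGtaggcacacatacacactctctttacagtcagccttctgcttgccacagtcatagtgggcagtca
DNTT: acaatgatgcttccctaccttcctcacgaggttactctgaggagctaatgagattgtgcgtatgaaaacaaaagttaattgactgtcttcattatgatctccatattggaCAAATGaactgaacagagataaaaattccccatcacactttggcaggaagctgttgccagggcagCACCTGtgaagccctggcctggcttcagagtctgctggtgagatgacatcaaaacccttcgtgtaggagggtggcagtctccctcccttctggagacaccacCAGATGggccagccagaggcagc
The RAG2 window held 1 E-box, CATCTG, which begins at position -21 from the start. The DNTT window held 3, CAAATG at position -140, CACCTG at -75 and CAGATG at 28. E-boxes were common, in 68.7% of the 35116 promoter windows of the same length. Neither window had a match, on either strand, to the TCF/LEF core CTTTGA (12.9% of all windows), the palindromic glucocorticoid receptor element (0.390%), the IKZF1 pattern TGGGAA (24.0%), the FOXO pattern GTAAACA (3.42%) or the RUNX pattern TGTGGT (13.1%). The table has 1 promoter entry for each of the 3 genes, but that of RAG1 belongs to a distant start: the GRCh38.p14 gene is 69410 bp long, and its entry is not printed. In that annotation TRAF6 is listed before RAG1 and IFTAP after RAG2, and BLNK and OPALIN flank DNTT. Because no hg19 annotation was used, peaks were placed by their distance from the 3 gene starts, which are given to the nearest kb. None was assigned to an exon, intron or neighbouring gene. For RAG1 the start used is that at 36590 kb, not the distant one. A region called upstream of RAG1 may therefore lie within the longer annotated gene.

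Each list carries the authors' peak values: a fold over the background modelled by MACS2, a p-value and a q-value. Peaks were ranked within a list by p-value, and the 20000 strongest of each list are called top peaks, so that all lists are compared at one length. Ranks are given as places within a list. Since the lists differ in how strong their peaks are, an order of ranks between lists is a description and shows no change. The lists held 128863 to 395786 peaks. The LEF1 lists had stronger peaks: 46742 to 79899 reached a −log10 q-value of at least 2, against 3071 to 9730 in the TCF7L2 lists, and the weakest top peak still reached 5.49 to 6.62 on that scale for LEF1 but 0.390 to 0.996 for TCF7L2. A top TCF7L2 peak can therefore be a weak call. The lengths of the shortest peaks split the libraries into the same sets for both antibodies. The set with control 1 and prednisolone 2 and 3 is called batch A here, and that with prednisolone 1 and control 2 and 3 batch B. For LEF1 batch A had the shorter minima, 164 to 165 bp against 187 to 197 bp. For TCF7L2 it had the longer ones, 193 to 201 bp against 158 to 167 bp. The labels name no batch, and whether a set was processed together was not tested. Within an antibody each batch has a single list of 1 treatment.

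LEF1 peaks were dense at both loci. At the RAG locus the control lists 1, 2 and 3 had 12, 12 and 18 top peaks and the prednisolone lists 11, 9 and 11. Tiled along the genome, windows of the same 240 kb held a mean of 1.67 top peaks and a 90th percentile of 5, so that each LEF1 list had 5.38 to 10.8 times the mean. The DNTT locus had 5, 4 and 6 top LEF1 peaks in the controls and 5 in each prednisolone list, 6.01 to 9.01 times the mean of 94 kb windows. TCF7L2 peaks were fewer at the RAG locus: 8, 8 and 7 top peaks in the controls and 3, 4 and 3 after prednisolone, or 1.80 to 4.80 times the mean. At the DNTT locus the TCF7L2 lists had 6, 4 and 3 top peaks in the controls and 4, 1 and 3 after prednisolone, or 1.52 to 9.09 times the mean.

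**Figure D1:**
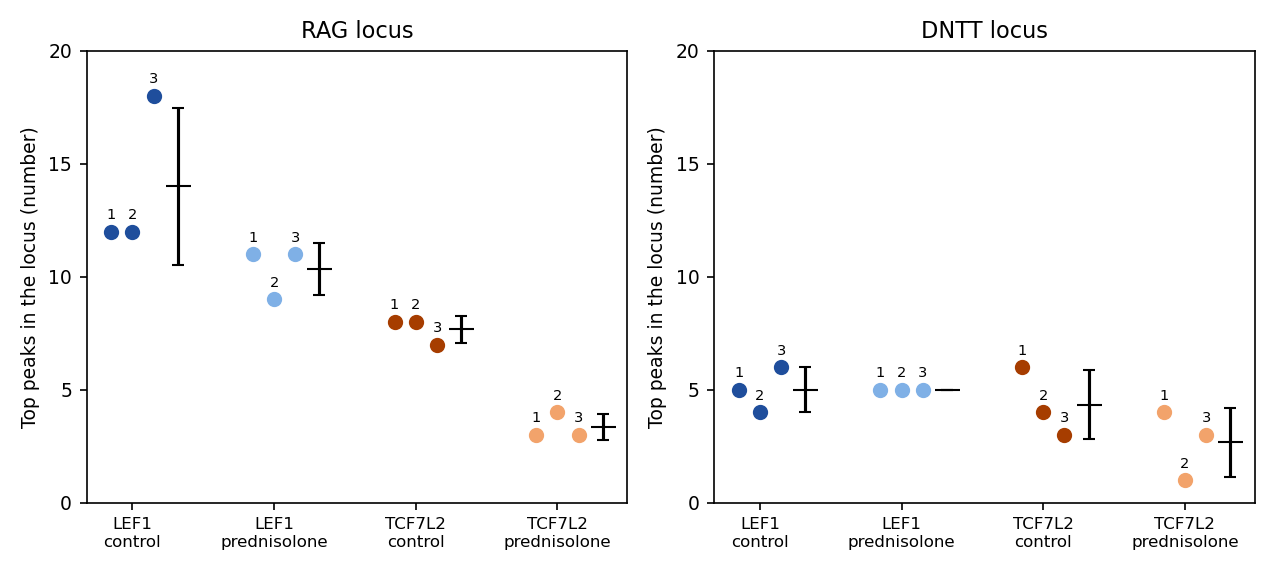
Number of top peaks (the 20000 strongest of each list) that overlap the RAG locus (left) and the DNTT locus (right), by antibody and treatment. Points are single lists labelled with their replicate number, and the bar beside them is the mean with its SD (n = 3). At the RAG locus every TCF7L2 prednisolone list (3 to 4) lies under every TCF7L2 control list (7 to 8).

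The antibodies were compared over all 12 lists. At the RAG locus the mean was 5.5 ± 2.43 top peaks for TCF7L2 and 12.2 ± 3.06 for LEF1 (SD, n = 6 lists each), a difference of -6.67 (exact permutation test within treatment, two-sided, p = 0.005, the smallest it can give, and 0.03 after Benjamini-Hochberg adjustment over 6 locus tests). The lowest LEF1 list had 9 and the highest TCF7L2 list 8, so the antibodies did not overlap. Such a separation, with LEF1 higher, was found in 2.63% of 11282 windows of 240 kb, and the opposite one in 2.54%. The adjusted p was 0.09 without LEF1 control 3 and 0.06 without any one of the TCF7L2 prednisolone lists. Batch A gave -5.67 and batch B -7.67. Within 5 kb of the gene bodies the call was lost: the means were 2.5 and 4 top peaks, a difference of -1.5 (exact permutation test, p = 0.085, adjusted 0.51). At the DNTT locus the means were 3.5 ± 1.64 and 5 ± 0.632 (SD, n = 6), and the difference of -1.5 did not pass the test (exact permutation test, p = 0.1, adjusted 0.15). The antibodies overlapped there, whereas 1.71% of 24495 windows of 94 kb had every TCF7L2 list under every LEF1 list and 1.56% the opposite. In bases the antibodies differed at both loci. Top LEF1 peaks covered 31.3 ± 9.16 kb of the RAG locus and 13.0 ± 3.46 kb of the DNTT locus, and top TCF7L2 peaks 4.52 ± 2.68 kb and 2.20 ± 1.81 kb (SD, n = 6; exact permutation test, p = 0.005 at each locus, adjusted 0.015). The median top LEF1 peak was 1472.5 to 2388 bp long at the RAG locus, against 512 to 846 bp for TCF7L2. Over the full lists of the whole genome the median peak length was 306 to 409 bp for LEF1 and 241 to 323 bp for TCF7L2. How many windows of the genome separate the antibodies in bases was not counted. The difference in bases is therefore not shown to be particular to these loci.

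To follow single sites, the top peaks of the 12 lists were merged into regions wherever they overlapped by at least 1 bp, which gave 94458 regions across the genome, 25 at the RAG locus and 8 at the DNTT locus. Of these 33, 15 had a top peak in a single list only, and 7 of the 12 such regions at the RAG locus came from LEF1 control 3. The share of all regions found in a single list was not counted. Another 3 regions of the RAG locus had a top peak in 2 lists, of which 2 lay 80.4 and 4.3 kb upstream of RAG1 and were found in LEF1 controls, and the other lay 9.6 kb downstream of its start. A top peak in all 6 LEF1 lists was found in 10 of 33 regions, 7 at the RAG locus and 3 at the DNTT locus, against 8% (7559) of all regions. Of these 10, 8 also had a top TCF7L2 peak in at least 1 list. Of the 7559 such regions across the genome, 1469 had no top TCF7L2 peak in any list, so the 8 of 10 are not shown to be particular to these loci. Described from the other side, 21 of 23 top TCF7L2 peaks of control cells at the RAG locus met a top LEF1 peak of control cells, and 12 of 13 at the DNTT locus. After prednisolone these counts were 9 of 10 and 6 of 8. Across the genome the share of top TCF7L2 peaks that did so was 41.2% to 44.8% in control lists and 24.8% to 38.7% in prednisolone lists.

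**Figure D2:**
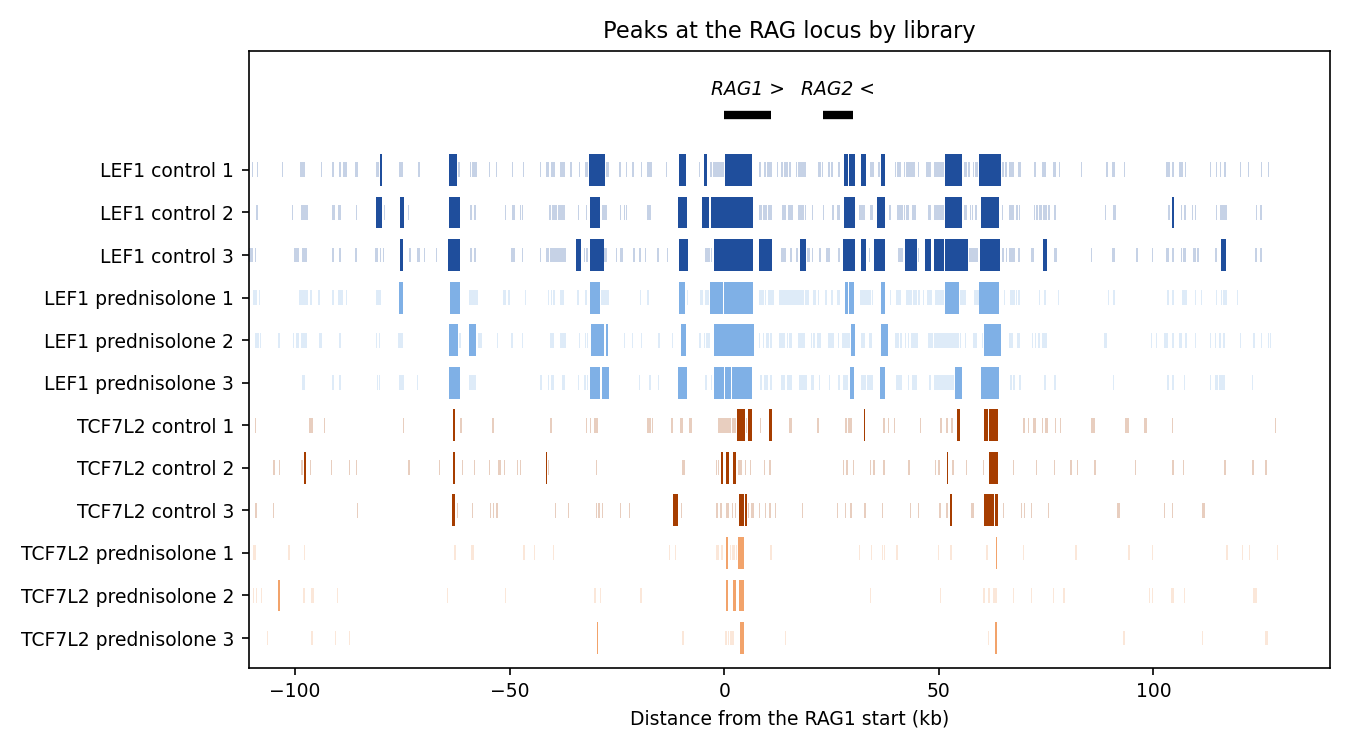
Peaks of the RAG locus in each of the 12 lists, with the distance from the RAG1 start in kb on the horizontal axis. Tall solid bars are top peaks, short pale bars are weaker peaks of the full list, black bars are the genes and arrowheads their direction of transcription. Tall LEF1 bars recur at 7 places in all 6 lists, and tall TCF7L2 bars are fewer.

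RAG1 is the catalytic subunit of the recombinase. Its start and the first part of its body, but not its far end, lay in a region of 10150 bp, chr11:36586677-36596826. This was the single region of both loci with a top peak in all 12 lists, a pattern of 0.714% of all regions. A top peak in all 6 TCF7L2 lists was found in 1.91% of all regions. Both shares count regions of any length. No one place in the RAG1 region had a top peak in all 6 TCF7L2 lists. The top TCF7L2 peaks of control 2 overlapped none of those of control 1, control 3 or prednisolone 3. In the other TCF7L2 lists top peaks did meet at one place. The strongest LEF1 peak of the RAG1 region ranked 7997, 2385 and 6287 in the control lists and 4950, 6550 and 7223 after prednisolone, with folds of 4.86 to 8.27. Single LEF1 peaks were up to 9693 bp long and ran from upstream of the start into the gene. For TCF7L2 the ranks were 6507, 5527 and 8340 in the controls and 2546, 3416 and 4452 after prednisolone, with folds of 3.50 to 5.38. By rank every TCF7L2 prednisolone list stood ahead of every control list, whereas the folds of the treatments overlapped. The −log10 q-values of the same peaks were 2.20, 2.52 and 2.29 in the controls and 4.48, 2.03 and 1.58 after prednisolone. By q-value prednisolone 2 and 3 were thus weaker than every control. These ranks belong to peaks at different places in the region, and the share of all regions with such an order was not counted. The summits of the factors had different medians within this region, although their ranges met: the strongest LEF1 summits lay between 36588462 and 36590875 and the TCF7L2 summits between 36590658 and 36595638, with medians 5088.5 bp apart. Nearer to the start the TCF7L2 signal was less regular, as 3 of 6 TCF7L2 lists had a top peak within 2 kb of it (control 2 and prednisolone 1 and 2), against 6 of 6 LEF1 lists.

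RAG2 encodes the partner subunit, which stimulates cleavage and reads a histone mark of active promoters through its PHD finger. Its start, whose sequence is shown above, lay in a region of 2808 bp, chr11:36617700-36620507, with a top peak in all 6 LEF1 lists and in no TCF7L2 list. LEF1 ranked 5864, 11607 and 5767 in the controls and 11913, 15926 and 11697 after prednisolone, with folds of 6.11, 4.66 and 5.55 and of 4.77, 3.52 and 4.94. By rank every control list stood ahead of every prednisolone list, though narrowly (11607 against 11697), whereas the folds of the treatments overlapped. No share of all regions was counted for this order. The 6 summits lay within 247 bp of each other, from 97 bp upstream to 150 bp downstream of the start as given to the nearest kb, and the median over all 6 was 36620003. The TCF7L2 control lists had weak peaks in the region, the best at rank 23378 with a −log10 q-value of 0.778, and no TCF7L2 prednisolone list had any. A region 6.5 kb upstream of RAG2, chr11:36624958-36628106, also had a top peak in all 6 LEF1 lists and in no TCF7L2 list. Its LEF1 ranks were 6000 to 13137, and the best TCF7L2 rank was 54351, in prednisolone 1. These were the 2 regions of the loci that LEF1 held alone, 2 of 33, against 1.56% of all regions. No region of either locus had a top peak in all TCF7L2 lists and none in the LEF1 lists (0.634% of all regions).

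The strongest LEF1 site of the RAG locus by median rank lay not at a start but 32 kb upstream of RAG2, at chr11:36649437-36654575. It ranked 331, 764 and 479 in the control lists and 831, 467 and 657 after prednisolone, among folds of 8.77 to 10.4. All 6 strongest summits fell within 50 bp, from 36652319 to 36652369, while the peaks were 3951 to 4957 bp long. TCF7L2 had top peaks there in 3 of 3 control lists (ranks 2675, 14113 and 2762) and in 2 of 3 prednisolone lists (ranks 8289 and 4124), and prednisolone 2 ranked 25870, just outside the limit. The control TCF7L2 summits, 36652336 to 36652527, lay beside the LEF1 summits. In prednisolone 1 and 3 they lay at 36653498 and 36653385, on peaks of 301 and 578 bp. In prednisolone 2 the summit lay at 36652758, nearer to the controls, on a peak of 1039 bp. The control peaks were 2093 to 2174 bp long. TCF7L2 summits were not compared between treatments in other regions of the genome.

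Between this site and RAG2, 24 kb upstream of the gene, a region of 5336 bp (chr11:36641343-36646678) had LEF1 top peaks in 5 of 6 lists, with ranks of 2457, 5328 and 9760 in the controls and of 9009 and 1900 in prednisolone 1 and 3. Prednisolone 2 ranked 37827 there. TCF7L2 had a top peak in each control list, at ranks 6177, 15536 and 18593, and in no prednisolone list: prednisolone 1 ranked 45457, and prednisolone 2 and 3 had no peak in the region. The control TCF7L2 summits were spread over 2483 bp, so they did not mark a single position.

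Upstream of the RAG1 start at 36590 kb 3 regions had a top peak in all 6 LEF1 lists, 62.9, 29.2 and 10.2 kb from it. At 62.9 kb, chr11:36525605-36528549, the LEF1 ranks were 893, 1711 and 730 in the controls and 1083, 2344 and 1433 after prednisolone, and the folds of 12.7 to 16.8 reached the highest value of the named regions of either locus. TCF7L2 ranked 5796, 7814 and 10331 in the controls, with folds of 4.26, 4.10 and 3.99 and summits 49 bp (median) from those of LEF1. After prednisolone the TCF7L2 peaks ranked 136577 in replicate 1 and 269337 in replicate 2, both with a −log10 q-value of at most 0.0169, and replicate 3 had none. At 29.2 kb, chr11:36558548-36563042, LEF1 ranked between 383 and 1489 and a top TCF7L2 peak was present in prednisolone 3 only, at rank 11547. At 10.2 kb, chr11:36578063-36581596, LEF1 ranked between 4146 and 10633, and a top TCF7L2 peak was present in control 3 only, at rank 13062. Less regular were a region 75.2 kb upstream of RAG1, chr11:36514334-36515359, with top peaks in 3 LEF1 lists and no TCF7L2 list, and one 2.4 kb upstream of RAG2, chr11:36621772-36623104, with top peaks in LEF1 controls 1 and 3 and in TCF7L2 control 1.

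**Figure D3:**
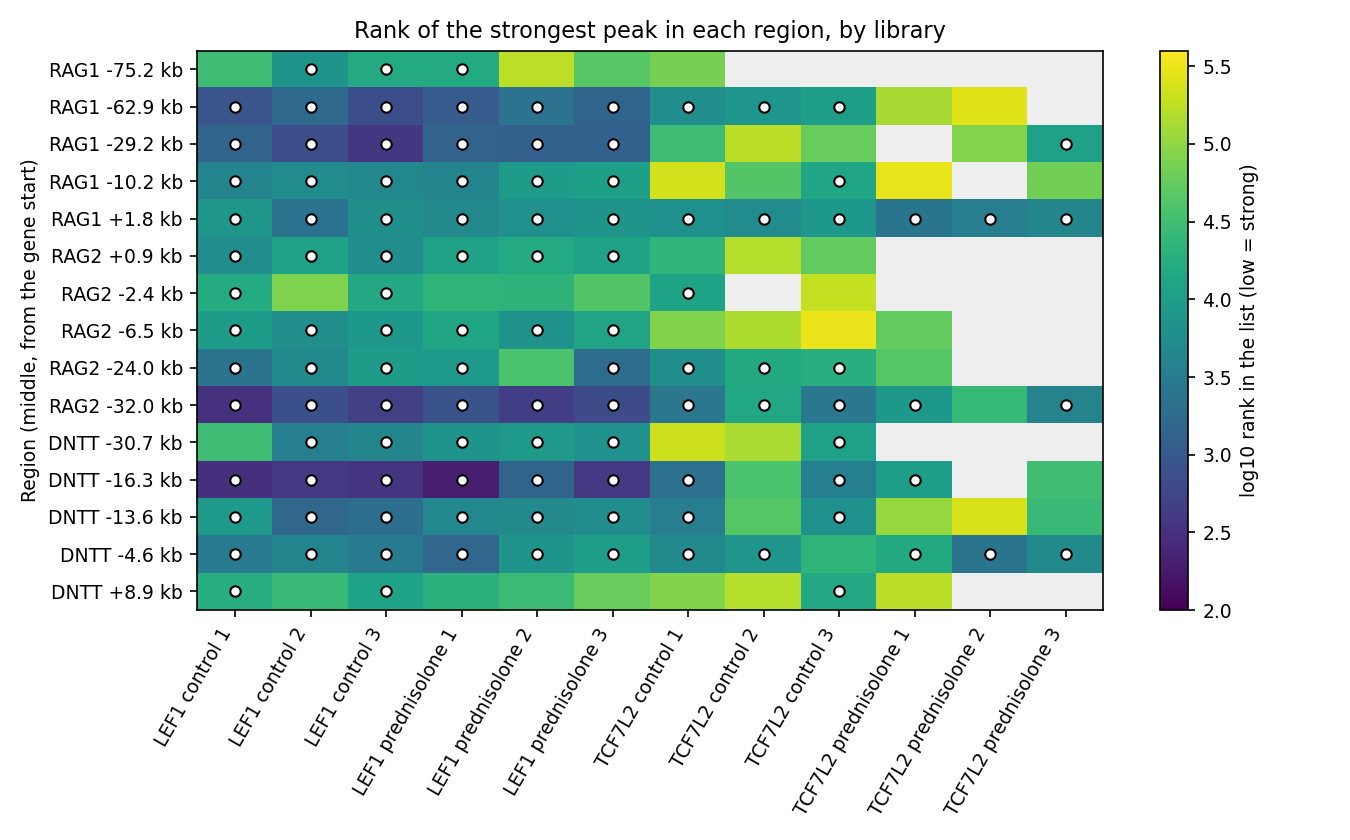
Rank of the strongest peak in each of the 15 regions with a top peak in at least 3 of the 12 lists, as log10 of the rank in its list (low values, dark, are strong peaks). Rows give the distance of the middle of the region from the nearest gene start, minus for upstream, grey cells have no peak and dots mark top peaks. The row 1.8 kb into RAG1 has dots in all 12 columns, and the row 0.9 kb into RAG2 has dots in the 6 LEF1 columns only.

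No LEF1 region of either locus was gained or lost with prednisolone by the rule used: none of 27 had a top peak in all 3 lists of one treatment and none of the other, against 2.83% of all LEF1 regions gained and 1.93% lost. This count rested on single lists and on the list length: 2 regions were lost without LEF1 control 2 and 2 without LEF1 control 3, 1 with 50000 top peaks, and over the full lists 2 were lost and 1 gained. In number, the top LEF1 peaks at the RAG locus averaged 10.3 ± 1.15 after prednisolone and 14.0 ± 3.46 in the controls (SD, n = 3 each). This difference, -3.67, gave p = 0.1 in a two-sided exact permutation test, the smallest that 3 against 3 allow (adjusted 0.15). The groups did not overlap, as was so in 4.36% of 8053 windows in this direction and in 5.15% in the opposite one, and batch A gave -2 and batch B -4. LEF1 control 3, with 18 peaks, decided its size: without it the difference was -1.67. At the DNTT locus both groups averaged 5 top LEF1 peaks, and the exact permutation test of this difference, 0, gave p = 1. The groups overlapped there; 3.75% of 14618 windows of 94 kb had every prednisolone list lower and 4.36% every one higher.

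TCF7L2 top peaks at the RAG locus averaged 3.33 ± 0.577 after prednisolone and 7.67 ± 0.577 in the controls (SD, n = 3 each), a difference of -4.33 with p = 0.1 in the exact permutation test, two-sided, again the smallest possible (adjusted 0.15). The groups did not overlap, which held in 3.65% of 11153 windows in this direction and in 3.88% in the opposite one. The difference was -4.5 in each batch, where a single list stood on 1 side, and leaving out any of the 6 lists gave -4.67 to -4.17. Of the 11 regions of the RAG locus with a top TCF7L2 peak, 2 had it in all 3 controls and in no prednisolone list. They lay 62.9 kb upstream of RAG1 and 24 kb upstream of RAG2, against 1.26% of all TCF7L2 regions. In the region 24 kb upstream of RAG2 the top peaks of the 3 controls did not overlap each other. From the RAG1 start they lay at 54.12 to 54.975, 51.818 to 52.223 and 52.641 to 53.148 kb in controls 1, 2 and 3. No TCF7L2 region of the RAG locus was gained (0.356% of all). With lists of 10000 top peaks the difference was -2 (exact permutation test, p = 0.4) and neither region met the rule. It was -2.67 among peaks with −log10 q of 2 or more, -0.333 with 5 or more, -1 within 5 kb of the gene bodies and -28.7 over the full lists. The prednisolone TCF7L2 lists also had fewer strong peaks across the genome, 3071 to 6499 reaching −log10 q of 2 against 7117 to 9730 in the controls, and its part in this result was not tested. The treatment difference of TCF7L2 was not shown to exceed that of LEF1: it differed by -0.667 top peaks at the RAG locus and by -1.67 at the DNTT locus (exact permutation tests of the treatment labels within antibody, p = 0.915 and 0.41, adjusted 0.915 and 0.82).

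DNTT was occupied mainly upstream of its start. The strongest region by median LEF1 rank, 16.3 kb upstream at chr10:98046418-98048969, ranked 310, 394 and 363 in the LEF1 controls and 201, 1432 and 400 after prednisolone, with folds of 9.80 to 10.8 and of 7.29 to 13.4. All 6 summits lay within 97 bp. Prednisolone 1 had the best rank of any LEF1 list and prednisolone 2 the worst, so the groups overlapped. TCF7L2 had a top peak there in controls 1 and 3 and in prednisolone 1, at ranks 2168, 3525 and 10293. These 3 summits fell between 98048053 and 98048124, with a median 8.5 bp from that of LEF1, whereas control 2 and prednisolone 3 ranked 38535 and 31725 and prednisolone 2 had no peak. A second region 13.6 kb upstream, chr10:98049175-98051693, had LEF1 ranks of 8520, 1543 and 1989 in the controls and of 4777, 4985 and 5898 after prednisolone. TCF7L2 had a top peak in it in controls 1 and 3 only.

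**Figure D4:**
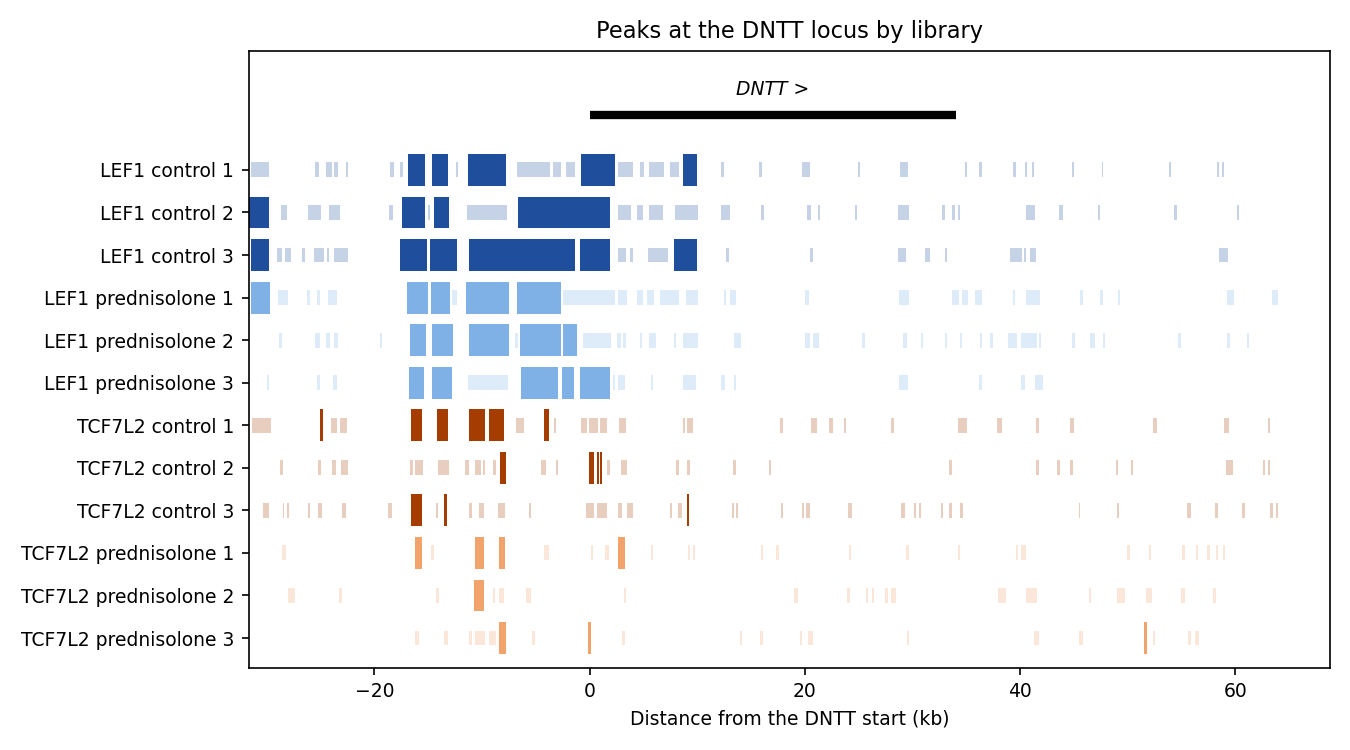
Peaks of the DNTT locus in each of the 12 lists, with the distance from the DNTT start in kb on the horizontal axis. Tall solid bars are top peaks, short pale bars are weaker peaks, and the black bar is the gene with its direction of transcription. Nearly all top LEF1 bars lie upstream of the start or over it, and no tall bar lies in the gene body beyond 10 kb.

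Across the DNTT start the peaks of the lists merged into a region of 13834 bp, chr10:98052509-98066342, centred 4.6 kb upstream of it. LEF1 had a top peak in it in all 6 lists and TCF7L2 in 5 of 6, where control 3 ranked 22548. The strongest LEF1 peak was not at one place: its summit lay between 98053728 and 98065137. In prednisolone 1 it was a peak of rank 1534 and fold 14.1 at 98053728. The strongest peaks of the other 5 lists had folds of 3.29 to 7.89, but their summits lay between 98059367 and 98065137. The folds of the lists at 98053728 itself were not compared. Within 2 kb of the start itself, whose sequence is shown above, LEF1 had a top peak in 3 of 3 controls (ranks 2972, 4228 and 3049) and in 2 of 3 prednisolone lists (ranks 17821 and 10173), while prednisolone 1 ranked 32583. By rank every control list stood ahead of every prednisolone list there, but the peaks ranked were centred at different places. The summit lay 4266 bp upstream of the start in control 2 and 1777 bp upstream in prednisolone 2. In the other LEF1 lists it lay 912 to 1137 bp downstream. How many sites of the genome have such an order was not counted. TCF7L2 had a top peak within 2 kb of the start in control 2 and prednisolone 3. In the gene body a region 8.9 kb from the start, chr10:98071831-98073979, had top peaks in LEF1 controls 1 and 3 and TCF7L2 control 3. A region 30.7 kb upstream at the edge of the locus, chr10:98032336-98034319, had top LEF1 peaks in 5 of 6 lists, all but control 1. TCF7L2 had a top peak there in control 3, at rank 11598. The LEF1 summits, 98033373 to 98033455, lay outside the locus, which starts at 98034000. Counting only peaks with a summit inside the locus, LEF1 averaged 4.33 top peaks in the controls and 4.67 after prednisolone. The top TCF7L2 peaks of the DNTT locus averaged 4.33 ± 1.53 in the controls and 2.67 ± 1.53 after prednisolone (SD, n = 3 each). The difference of -1.67 did not pass the test (exact permutation test, p = 0.5, adjusted 0.6), with -4 in batch A but 0.5 in batch B. These groups overlapped; among 23692 windows of 94 kb every prednisolone list was lower in 3.01% and higher in 1.96%.

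The place of the LEF1 summit within a region was compared between treatments in the 10 regions with a top peak in all 6 LEF1 lists. In 2 of them the control and prednisolone summits did not overlap, against 13.6% of 7559 such regions. In 1, the region 13.6 kb upstream of DNTT, the treatments lay at least 500 bp apart, against 0.635%; its values were singled out after they were seen.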

How the data were processed

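CUT&RUN peaks were mapped with LEF1 and TCF7L2 antibodies in Nalm6 cells. The authors called peaks with MACS2 on hg19, per the submitters' processing notes, and the deposited peak names show 1 call set per library. For each peak the authors deposited a fold ratio over the modelled background and, as −log10 values, a p-value and a q-value. The lists end at a p-value of 0.05. The aligner, the control library and read depths are not given in the sources used here, and the number of replicates limits the precision. Peaks were ranked by −log10 p-value, then fold, then a seeded random order, since ties otherwise favour the first chromosomes. Ties filled up to 7599 of the 20000 places in a TCF7L2 list and up to 472 in a LEF1 list. Loci were read from the stated windows, with an overlap of at least 1 bp, and differences are prednisolone minus control or TCF7L2 minus LEF1. Exact permutation tests used 20 relabellings per treatment comparison and 400 per antibody comparison. Gained, lost and single-antibody regions were counted with no test per region. Regions named had a top peak in at least 3 lists or the best median rank. The lists' score column was not used. The scripts were tested on simulated data, with Python 3.11.15, numpy 2.4.6, pandas 2.3.3, scipy 1.17.1 and matplotlib 3.10.9. Other recombination genes were not analysed here, as no hg19 annotation was used. The members, windows and settings were chosen with earlier results of these data known. Alternatives were other list lengths, q-value limits, treatment of ties, overlaps, windows, bases covered, a replicate block and leaving out each list.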

Additional observations from a re-analysis of the deposited data

How the results depend on the processing

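Of 46 recomputed locus tests between antibodies, all with TCF7L2 lower, 36 kept their side of the threshold, 6 lost the call and 4 gained it. The 68 recomputed treatment tests could not cross the threshold. In 51 of these, for all but LEF1 at the DNTT locus, prednisolone stayed lower; the difference of 0 for LEF1 there has no direction, and its 17 alternatives ran from -2.80 to 0.5. Of 84 recomputed region counts 69 stayed within 1.5 times and 15 moved. Most of the 69 were counts of 0 that remained 0, so the tally says little about the counts above 0. The RAG difference between antibodies, -6.67, lost its call within 5 kb of the gene bodies (-1.5, adjusted p = 0.51), with the replicate block (-6.67, exact p = 0.03125, adjusted 0.1875), and without LEF1 control 3 or TCF7L2 prednisolone 1, 2 or 3 (adjusted exact p of 0.06 to 0.09); leaving out single lists gave -7.3 to -5.5. The DNTT difference between antibodies, -1.5, passed among peaks with −log10 q from 2 up (-10) or from 5 up (-6.17) (exact permutation tests, adjusted p = 0.015 each). A fixed q-value limit keeps more LEF1 peaks across the genome, 46742 to 79899 against 3071 to 9730 for TCF7L2 at 2. These passes are therefore not shown to be particular to the DNTT locus. Over the full lists the DNTT difference was -0.833 (exact permutation test, p = 0.865). It also passed in kb covered (-10.8; exact permutation test, adjusted p = 0.015) and without TCF7L2 control 1 (exact permutation test, adjusted p = 0.045). Leaving out single lists gave -2 to -1. Leaving out single lists gave -4.67 to -1.67 for LEF1 and -4.67 to -4.17 for TCF7L2 at the RAG locus, and -0.5 to 0.5 and -2.33 to -0.833 at the DNTT locus. Within 5 kb of the gene bodies the RAG treatment differences were -1.33 for LEF1 and -1 for TCF7L2.

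The 2 lost TCF7L2 regions became 0 with 10000 top peaks, with −log10 q limited to 2 or more, and when absence from the full prednisolone lists was required, 1 with 50000 top peaks and 4 with full lists. The 2 regions held by LEF1 alone became 1 with 10000 top peaks, 6 with full lists, 8 with −log10 q limited to 2 or more and 0 when absence from the full TCF7L2 lists was required. Lost LEF1 regions became 1 with 50000 top peaks and 2 with full lists, and 0 to 2 over single lists, the 2 without LEF1 control 2 or 3. Full lists gave 1 gained LEF1 and 1 gained TCF7L2 region. Leaving out single lists from region counts was chosen after seeing the data; it gave 2 to 3 lost TCF7L2 regions and 2 to 3 held by LEF1 alone. Same-numbered libraries did not deviate together over regions (12 correlations, -0.0560 to -0.00101), so the numbers were not taken to pair them, and under the block the treatment tests cannot go below an exact p of 0.25.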

Other observations

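In the region 13.6 kb upstream of DNTT the strongest LEF1 summit stood at different places in the 2 treatments, a comparison chosen after its values were seen. In the 3 control lists it lay between 98050491 and 98050555 on chromosome 10, and in the 3 prednisolone lists between 98049842 and 98049928, so that the treatments were 563 bp apart and did not overlap. The median moved by 584 bp, away from DNTT. Of the 7559 regions with a top peak in all 6 LEF1 lists, 13.6% had summits that did not overlap between treatments, and 0.635% had them at least 500 bp apart. Among the 10 such regions of both loci 2 did not overlap, the other being the region 62.9 kb upstream of RAG1, where the gap was 2 bp. The peaks of all 6 lists spanned both positions upstream of DNTT, and the summits of TCF7L2 controls 1 and 3 there lay at 98050277 and 98050535.

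The next peaks were also picked out after their values were seen. TCF7L2 control 1 had its best RAG peak near the far end of RAG1, in the region 9.6 kb from its start (chr11:36598061-36601146), at rank 2611 with a fold of 5.71. LEF1 control 3 also had a top peak in that region, at rank 14000, and no other TCF7L2 list did, where controls 2 and 3 ranked 41501 and 49755. LEF1 prednisolone 2 alone had a top peak 58.7 kb upstream of RAG1 (chr11:36530487-36532103), at rank 6746 with a fold of 7.33, and the other LEF1 lists ranked 28871 to 128365 there.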
